A study of Mus musculus with 40 samples.

Results

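The trimethyl mark on lysine 27 of histone H3 (H3K27me3) was compared between K27M and control oligodendrocyte precursor cells (OPCs) from the mouse brainstem, through the peak lists of all 4 brainstem H3K27me3 ChIP-seq libraries among the 20 libraries with peak lists in the series. The members were chosen by tissue label, antibody and genotype: K27M cultures 59 and 61 and control cultures 59 and 61. On the 19 autosomes the 4 lists held 93585 peaks, out of 100328 on all sequences. H3-3a-LSL-K27M mice carry the mutation at the endogenous H3.3 gene behind a floxed STOP cassette, and the hGFAP-Cre transgene (AMGFAP-Cre;K27M in the labels) removes that cassette in neural progenitors and their progeny, not in OPCs alone. Litters on an FVB background were taken at postnatal days 5 to 7, and brainstems were pooled by genotype, so that each library stands for a pool of animals. OPCs were depleted of endothelial cells and microglia, captured by PDGFRa immunopanning and kept undifferentiated in medium with PDGF, neurotrophin-3, CNTF and forskolin. Both genotypes were handled in this way, and the libraries with the same culture number were compared as pairs.

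H3K27me3 is deposited by Polycomb repressive complex 2 (PRC2), which settles on CpG-rich DNA at developmental genes and can spread the mark outward into broad domains. The mark is tied to gene silencing, and many of its promoters also carry H3K4me3, the mark of active or poised promoters, a state called bivalent. Histone H3 with methionine in place of lysine 27 hampers PRC2, and cells with this mutation, found in diffuse midline glioma, lose much of their H3K27me3 while some CpG-rich sites keep it.

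The cell type was checked on marker genes. Promoter H3K4me3 peaks lay over all 10 OPC genes in each of the 4 libraries, among them Pdgfra, the receptor used for panning, and Olig2 and Sox10, transcription factors of the lineage, and 9 of these genes had no H3K27me3 promoter peak in any library. The tenth, Nkx2-2, had one in K27M culture 61 alone, with a fold enrichment of 2.83. H3K4me3 was not particular to the OPC genes: it lay over 7 to 8 of 9 neuron, 4 to 6 of 8 astrocyte, 2 to 3 of 8 endothelial and 0 to 2 of 8 microglia genes, and over 62.2% to 64.7% of all genes. H3K27me3 promoter peaks in both controls were found at 8 of 9 neuron, 3 of 8 astrocyte, 3 of 8 endothelial and 1 of 8 microglia genes, against 16.5% of all genes. The neuron genes were thus often under both marks, and the OPC genes under H3K4me3 alone in all libraries but 1.

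The control libraries were unequal, and this touches each result that follows. Control culture 59 had 53757 autosomal peaks over 101.3 Mb and control culture 61 had 25366 peaks over 48.8 Mb. K27M culture 59 had 6692 peaks over 21.2 Mb and K27M culture 61 had 7770 peaks over 23.1 Mb. The K27M lists were thus closer to each other in size than the control lists were. The peak files give no read depth, but the study's reporting notes list total reads per library. By these, control culture 59 was sequenced far more deeply than control culture 61, in the same order as their list sizes. K27M culture 59 came between them, and K27M culture 61 had slightly more reads than control culture 61. Of the K27M libraries, the one with more reads had the shorter list. The part of depth in the list sizes was not tested.

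Less of the genome lay under H3K27me3 peaks in K27M than in control OPCs in both cultures. Covered autosomal length in K27M was 0.209 times that of control in culture 59 and 0.472 times in culture 61. The log2 ratios were -2.26 and -1.08, with a mean of -1.67 ± 0.83 (SD, n = 2 pairs). Peak number gave log2 ratios of -3.01 and -1.71. An exact sign-flip permutation test over 2 pairs, two-sided, gave p = 0.5 for either measure, the smallest p that 2 pairs allow. The difference between cultures came from the controls, which stood at 101.3 and 48.8 Mb.

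Position by position, 19.2 Mb (18.9%) of the control length in culture 59 was also under a K27M peak and 82.1 Mb (81.1%) was not. In culture 61, 20.9 Mb (42.8%) was kept and 27.9 Mb (57.2%) was lost. Control culture 59 itself shared only 37.3% of its length with control culture 61, whereas control culture 61 shared 77.5% with culture 59. Of the length lost in culture 59, 23.9% lay under a peak of the other control, and in culture 61 the share was 65.8%. Over the 37.8 Mb that both controls shared, 43.6% was kept in both K27M libraries, 44.2% was lost in both and 12.2% was kept in 1. The kept lengths were close in both cultures, as were the lengths lost from control-shared domains, 19.6 and 18.4 Mb.

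**Figure D1:**
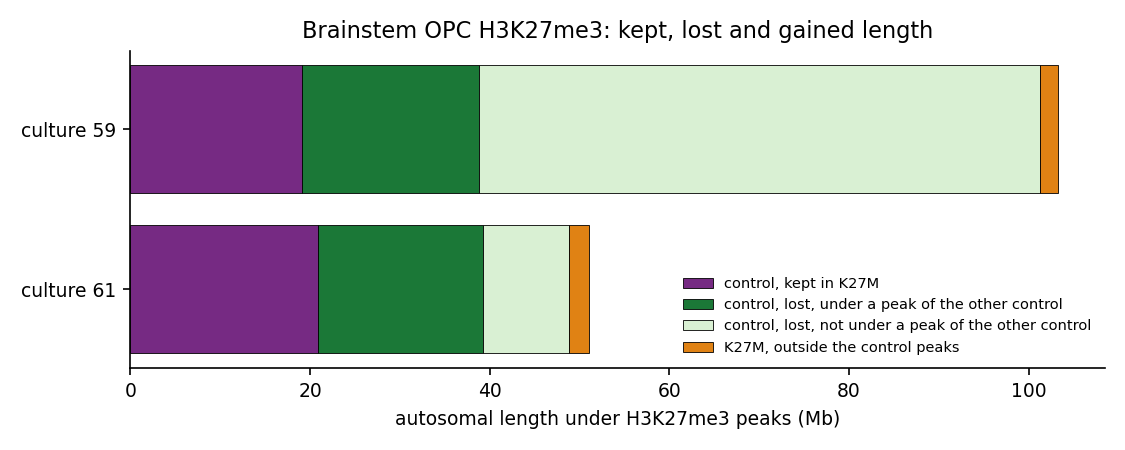
Autosomal length under H3K27me3 peaks in Mb for each culture, split into control length kept in the matched K27M library, control length lost (by whether the other control had a peak there) and K27M length outside the matched control peaks. Kept length was 19.2 Mb in culture 59 and 20.9 Mb in culture 61, while the length lost and not under a peak of the other control was 62.5 Mb and 9.57 Mb.

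Gained length was small. It came to 2.02 Mb in culture 59 (9.53% of K27M length) and 2.19 Mb in culture 61 (9.48%), and 78.2% and 78.8% of it lay under a peak of the other control. Only 2.08% and 2.01% of K27M length lay under no control peak, and 0.187 Mb was covered in both K27M libraries and in neither control. On individual autosomes the share kept ran from 9.23% to 24.6% in culture 59, with a median of 19.6%, and from 31.3% to 48.0% in culture 61, with a median of 41.7%. Chromosome 16 was the lowest in both cultures.

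Peaks of the 4 libraries were merged into 59941 regions. Of these, 3675 were retained (a peak in all 4 libraries), 7789 were lost (a peak in both controls and in neither K27M library) and 24 were gained (the reverse). A further 38942 regions had a peak in control culture 59 alone. Retained regions were long, with a median of 6665 bp and 38.7 Mb in all, and 65.1% of them touched a promoter (2000 bp upstream to 1000 bp downstream of an annotated transcript start). Lost regions had a median of 2140 bp and summed to 21.6 Mb, and 24.2% touched a promoter. H3K4me3 peaks of both controls overlapped 45.6% of retained and 7.31% of lost regions. Each region joins the overlapping peaks of the 4 libraries. A region with peaks in all 4 therefore tends to be longer, and longer regions meet promoters and H3K4me3 peaks more easily. Of the 38.7 Mb in retained regions, 16.5 Mb lay under a peak in each of the 4 libraries.

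The 5 longest retained regions were headed by homeobox clusters. The longest, chr11:96142444-96505259 (mm10, as all coordinates here), held Hoxb13 to Hoxb1 and reached into Skap1, and the next, chr15:102829840-103134713, held the HoxC cluster. In the first, control peaks covered 99.9% and 94.2% of the region and K27M peaks 60.4% and 64.9% (cultures 59 and 61). The third, chr4:154417633-154610401, lay over Prdm16, a zinc-finger regulator of neural stem cells and brown fat, with all of it and 75.2% covered in control and 49.7% and 55.4% in K27M. The others lay in Skap1 (chr11:96521756-96711936) and over the HoxA cluster and Evx1 (chr6:52162583-52333650). K27M peaks thus covered less of the HoxB, HoxC, Prdm16 and Skap1 regions than control peaks in both cultures, and the HoxA region was the exception, with 89.2% and 73.8% in control and 86.5% and 97.6% in K27M. From first to last gene, the HoxC cluster itself was 100% covered in each library, so the lower cover of that region lay outside the cluster. The HoxB cluster was covered by 100% and 92.8% in control and 88.7% and 93.7% in K27M.

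The longest lost region, chr6:90235530-90268718 (33189 bp), lay over Vmn1r54, a vomeronasal pheromone receptor gene. Control culture 59 covered all of it with a highest fold enrichment of 3.02, and control culture 61 covered 30.1% of it with 3.23. Fold enrichment is the ChIP signal over the library's own input averaged over a peak. The others were chr11:83221968-83249772, with Slfn3 as the nearest gene, chr2:85323905-85350786 over the olfactory receptor gene Olfr987, chr13:54423268-54449938 near Thoc3, and chr7:28063701-28088967 over Fcgbp, a mucus protein gene. In 4 of these 5 regions control culture 61 covered under 50% of the length, so that their length came mainly from control culture 59.

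All 24 gained regions were short, 0.0307 Mb in all. The longest, chr2:38366013-38370813 (4801 bp), overlapped Lhx2, a forebrain and eye transcription factor, with fold enrichments of 2.94 and 4.76. The Lhx2 promoter itself had a peak in all 4 libraries, at 5.11 and 5.02 in control and 22.8 and 29.6 in K27M. The next were chr14:64585311-64588185, 59079 bp from Kif13b, chr9:21163840-21166667 in Pde4a, which encodes an enzyme that breaks down cAMP, chr6:35593991-35596447 and chr9:43429116-43431561. Their fold enrichments ran between 2.55 and 3.35.

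Genes were classed by the peaks on their promoters. Of 20807 autosomal protein-coding genes, 6107 had an H3K27me3 promoter peak in control culture 59, 3682 in control culture 61, 2167 in K27M culture 59 and 2366 in K27M culture 61. K27M minus control was -3940 genes in culture 59 and -1316 in culture 61, a mean difference of -2628 ± 1855 (SD, n = 2 pairs; exact sign-flip permutation test, two-sided, p = 0.5, the smallest possible). Of 3426 genes with a peak in both controls, 1984 (57.9%) were retained in both K27M libraries and 1083 (31.6%) were lost in both. The remaining 359 were lost in 1 culture, 265 in culture 59 and 94 in culture 61. Of 14444 genes with a peak in neither control, 1 (0.00692%) had a peak in both K27M libraries. That count was not stable: it was 16 when peaks enriched under 3-fold were dropped, 29 with equal numbers of peaks in each pair, and 35 and 94 in cultures 59 and 61 taken alone.

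How far an absent peak can be read as a loss was seen from the controls. Of the genes with a peak in control culture 59, 43.9% had none in control culture 61 and 65.1% had none in K27M culture 59. Of the genes with a peak in control culture 61, 6.95% had none in control culture 59 and 38.3% had none in K27M culture 61. In the other direction, 98.4% and 96.0% of genes with a K27M peak had one in the matched control.

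Sequences upstream of the annotated gene start were read for both classes. The 300 bases before the start of 2 retained genes, Lmx1b and Evx2, and of 3 lost genes, Cnep1r1, Rad21l and Olfr1416, are shown 5′ to 3′ on the gene's strand, with CpG dinucleotides in capitals. They were the leading genes of each class by fold enrichment (1 per shared peak) whose upstream stretch held no annotated exon, apart from Bub3, a retained neighbour of Hmx2 with 8 CpGs. All lie outside the exons annotated in GENCODE M21 on mm10 (GRCm38). The Lmx1b stretch ends in an open reading frame, so it may hold part of a first exon that this annotation lacks.
Lmx1b, chr2:33640512-33640811, minus strand: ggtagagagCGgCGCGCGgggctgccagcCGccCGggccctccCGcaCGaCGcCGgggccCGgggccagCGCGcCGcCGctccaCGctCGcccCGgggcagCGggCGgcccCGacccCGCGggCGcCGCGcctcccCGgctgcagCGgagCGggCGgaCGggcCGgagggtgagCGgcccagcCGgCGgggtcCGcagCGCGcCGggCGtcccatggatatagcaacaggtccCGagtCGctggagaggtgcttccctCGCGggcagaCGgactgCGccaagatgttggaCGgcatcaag
Evx2, chr2:74659558-74659857, minus strand: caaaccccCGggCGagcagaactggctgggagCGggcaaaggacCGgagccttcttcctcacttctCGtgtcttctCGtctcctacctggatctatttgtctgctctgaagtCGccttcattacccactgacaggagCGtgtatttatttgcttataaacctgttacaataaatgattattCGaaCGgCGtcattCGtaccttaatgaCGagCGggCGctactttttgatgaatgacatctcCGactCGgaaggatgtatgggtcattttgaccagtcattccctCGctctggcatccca
Cnep1r1, chr8:88118469-88118768, plus strand: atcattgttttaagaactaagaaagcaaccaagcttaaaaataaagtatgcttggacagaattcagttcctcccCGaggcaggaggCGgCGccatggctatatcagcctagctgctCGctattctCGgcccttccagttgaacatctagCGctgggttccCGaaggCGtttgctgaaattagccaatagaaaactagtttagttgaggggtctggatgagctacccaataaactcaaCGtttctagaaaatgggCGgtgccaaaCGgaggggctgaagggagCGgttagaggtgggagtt
Rad21l, chr2:151668534-151668833, minus strand: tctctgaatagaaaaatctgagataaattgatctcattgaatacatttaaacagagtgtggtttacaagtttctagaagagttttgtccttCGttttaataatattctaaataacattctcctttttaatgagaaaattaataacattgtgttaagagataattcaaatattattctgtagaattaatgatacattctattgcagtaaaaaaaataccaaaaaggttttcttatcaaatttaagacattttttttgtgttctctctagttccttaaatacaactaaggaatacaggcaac
Olfr1416, chr1:92485114-92485413, minus strand: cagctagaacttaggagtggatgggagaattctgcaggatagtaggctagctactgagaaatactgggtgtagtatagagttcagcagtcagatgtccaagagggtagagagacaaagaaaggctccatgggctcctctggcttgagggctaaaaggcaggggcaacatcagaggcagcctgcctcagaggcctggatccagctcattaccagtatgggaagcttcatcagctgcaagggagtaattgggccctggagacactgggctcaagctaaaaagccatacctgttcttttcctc
These stretches held 47 CpGs for Lmx1b, 18 for Evx2, 12 for Cnep1r1, 1 for Rad21l and 0 for Olfr1416. The retained Bub3, not shown, held 8, fewer than the lost Cnep1r1. Over all members, the median was 13 CpGs in the 300 bases upstream of the 1984 retained genes and 7 upstream of the 1083 lost genes, against 9 for all genes. The classes overlapped, with quartiles of 7 and 22 for retained and 3 and 15.5 for lost genes. No CpG was found upstream of 1.51% of retained, 8.77% of lost and 5.99% of all genes.

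CpG density was on average higher in kept than in lost chromatin, and the classes overlapped. Quartiles were 9.64 and 24.4 CpG per kb for retained regions and 5.28 and 12.9 for lost regions. Kept length held 20.9 CpG per kb in culture 59 and 19.9 in culture 61, and lost length 10.9 and 10.0, against 8.51 over all autosomes. Lost length in culture 59 had a close density whether it lay under a peak of the other control (11.0) or not (10.9). Promoters took up 29.2% and 27.5% of kept and 15.2% and 13.5% of lost length, against 8.74% of the autosomes, and intergenic sequence took up 34.0% and 35.2% of kept and 46.6% and 48.6% of lost length.

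Among genes, retention rose with the CpG density of the promoter. All 20807 genes were divided into 5 equal groups (quintiles) by CpG per kb of the promoter, and the share retained among those with a peak in both controls was 18.8% in the lowest quintile, then 43.5%, 52.9% and 68.3%, and 78.4% in the highest. The share lost went from 73.5% in the lowest to 15.3% in the highest quintile. At the retained genes the change in fold enrichment was highest in the CpG-richest promoters. Its median log2 ratio of K27M to control was 0.34 in culture 59 and 0.76 in culture 61 in the CpG-richest quintile, and -0.23 and 0.15 in the CpG-poorest.

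**Figure D2:**
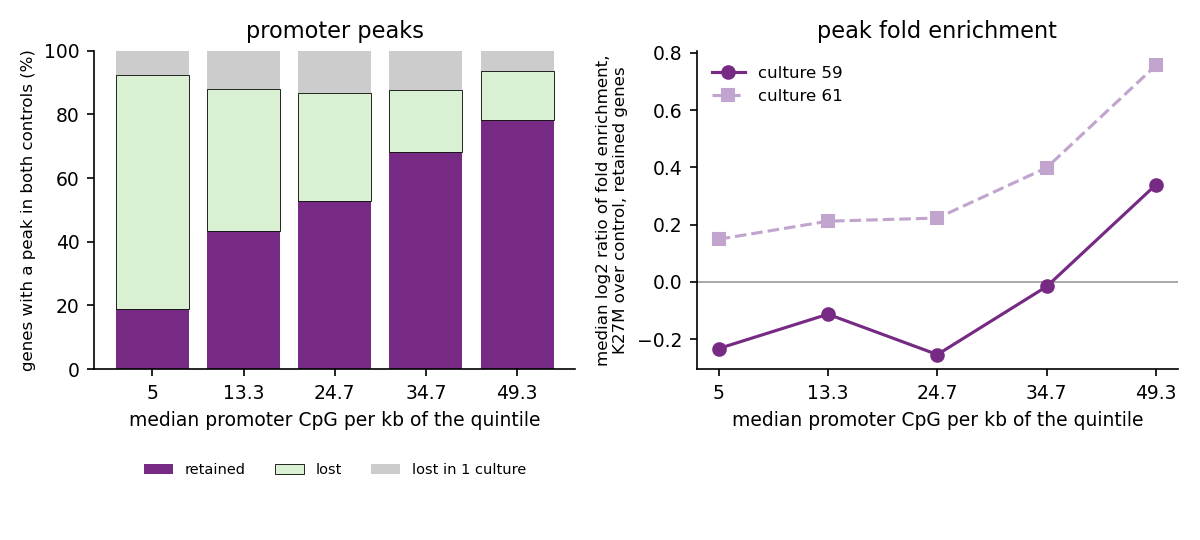
Genes with an H3K27me3 promoter peak in both controls, by quintile of promoter CpG density (x axis, median CpG per kb). The left panel stacks the percentages retained, lost and lost in 1 culture, with retention going from 18.8% to 78.4%, and the right panel gives the median log2 ratio of peak fold enrichment, K27M over control, at retained genes for each culture, highest in the CpG-richest quintile of both.

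Loss also followed the length of the control domain. Of the control peaks under 1 kb, 1.44% in culture 59 and 6.38% in culture 61 had a peak in the matched K27M library, and of those of 20 kb or more, 91.4% and 98.3% did. The other control gives the scale: it had a peak over 10.8% and 57.8% of the peaks under 1 kb and over 98.3% and 99.6% of those of 20 kb or more. Between 2 and 5 kb, the K27M library had a peak over 58.6% of the peaks of control culture 61 and the other control over 91.6%. Peak strength sorted them alike. In the weakest quintile of control peaks by fold enrichment 1.68% and 7.11% had a K27M peak, and in the strongest 34.6% and 69.9%.

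**Figure D3:**
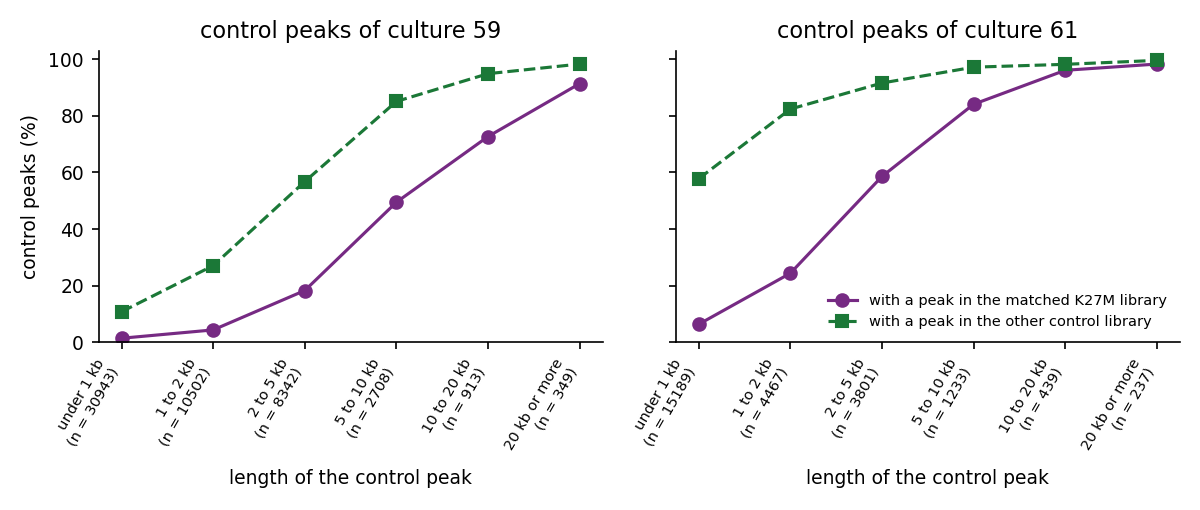
Percentage of control H3K27me3 peaks with a peak in the matched K27M library (circles) and in the other control library (squares), by length of the control peak, for culture 59 (left) and culture 61 (right), with the number of peaks under each bin. Both lines rise with length, and the K27M line lies below the other-control line in each bin.

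Most long domains kept a K27M peak over part of their length. Of 1262 control peaks of at least 10 kb in culture 59, 983 (77.9%) had a K27M peak, as did 655 of 676 (96.9%) in culture 61. In those, the median share of length kept was 50.3% (quartiles 24.1% and 82.5%) in culture 59 and 82.2% (57.9% and 95.0%) in culture 61. The kept portions held 18.8 and 17.8 CpG per kb and the lost portions of the same domains 10.6 and 9.35. Coverage around the starts of retained genes was lower in K27M as well. At 1 kb downstream 83.9% and 75.3% of retained genes lay under a control peak and 67.7% and 68.6% under a K27M peak. At 10 kb upstream the values were 26.0% and 17.5% in control and 11.8% and 12.4% in K27M. The K27M profiles of both cultures ran together, and the control profiles lay apart from each other and above them.

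**Figure D4:**
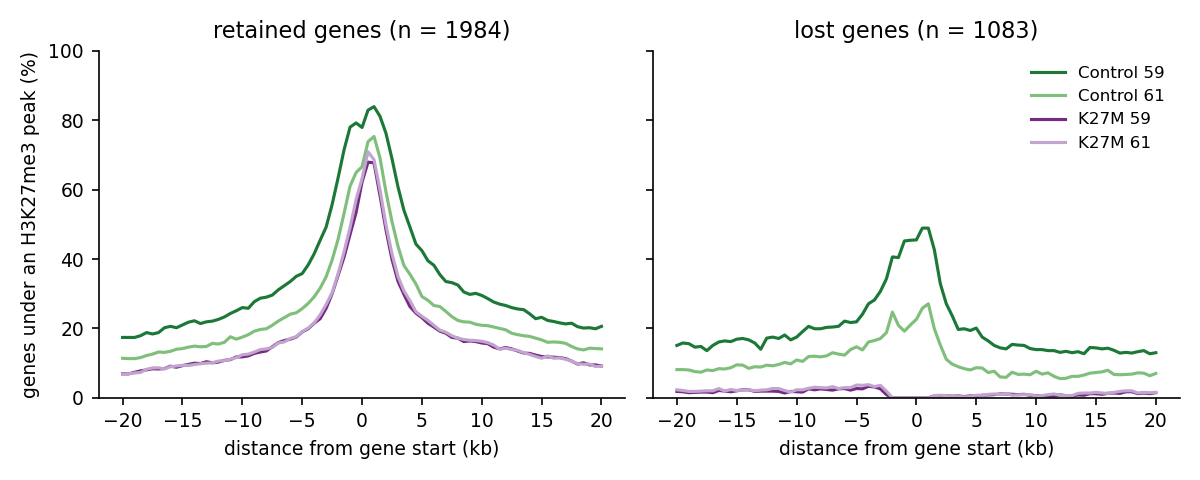
Percentage of retained (left) and lost (right) genes with an H3K27me3 peak at each distance from the gene start, in steps of 500 bp over 20 kb on each side, in the 4 libraries. K27M lines lie below both control lines at retained genes, and at lost genes they stay under 4% over the whole window (the absence within the promoter is fixed by how the class was defined).

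Fold enrichment at retained promoters had a wider range in K27M than in control OPCs. In culture 59 the 5th percentile, median and 95th percentile over the 1984 genes were 2.87, 5.18 and 8.99 in control and 2.54, 4.65 and 24.1 in K27M. In culture 61 they were 2.81, 4.39 and 8.77 in control and 2.80, 5.50 and 28.2 in K27M. The value was higher in K27M at 51.0% of the genes in culture 59 and at 78.4% in culture 61. These values are relative to each library's own input and were not scaled by the Drosophila spike-in, and K27M peaks covered less of the surroundings of these starts, so they do not give the amount of the mark per cell.

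The retained genes with the highest K27M fold enrichment were developmental transcription factors. Lmx1b, a LIM-homeobox factor of dopamine and serotonin neurons, had 6.62 and 8.60 in control (cultures 59 and 61) and 31.3 and 35.5 in K27M. Hmx2 and Hmx3, homeobox factors of the inner ear and hypothalamus, shared 1 peak with the start of Bub3, a spindle checkpoint gene, at 9.90 and 10.9 in control and 31.1 and 38.7 in K27M. Evx2, a homeobox factor next to the HoxD cluster, and Hoxd13, Hoxd12, Hoxd11, Hoxd10, Hoxd9, Hoxd8, Hoxd4 and Hoxd3 shared another, at 10.3 and 11.4 in control and 30.4 and 30.6 in K27M. In the telencephalic OPCs, libraries that played no part in choosing these genes, Lmx1b stood at 3.53, 17.4 and 9.73 in control and 8.97, 26.2 and 30.4 in K27M (cultures 59, 60 and 61), higher in K27M in each pair.

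The leading lost genes had lower control enrichment than the leading retained genes and varied roles. Arhgef5, a guanine nucleotide exchange factor, had 5.44 and 4.63 in control, Cnep1r1, a subunit of a nuclear membrane phosphatase, 5.42 and 4.66, and Rad21l, a cohesin subunit of meiosis, 4.53 and 4.75. Tenm3, a teneurin of synaptic wiring, had 4.01 and 5.13, Ano9, an anoctamin, 6.08 and 3.89, and Prlr, the prolactin receptor, 3.80 and 3.84. The receptor genes Olfr1416 (4.31 and 4.13) and Vmn1r86 (3.88 and 4.36) completed the list. None had a K27M peak on the promoter in either culture, by definition, and the control values overlapped those of retained genes. Over all 1083 lost genes the median control fold enrichment was 2.77 and 2.83, and the control peaks covered a median of 1717 and 676 bp of the 3000 bp promoter. In 306 of them both control peaks covered at least 1000 bp. The nearest K27M peak lay a median of 112 kb (culture 59) and 91.3 kb (culture 61) away, and within 10 kb in 14.6% and 16.3%.

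The 1 gene gained under the main settings was Neurl1a, an E3 ubiquitin ligase of synapses, at 2.30 and 2.52, with K27M peaks over only 111 and 496 bp of the promoter.

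Gene families differed in their share of lost promoters, read here against 57.9% retained and 31.6% lost over all genes with a peak in both controls. All 36 Hox cluster genes with a peak in both controls were retained, as were all 13 T-box, 8 Pax, 8 Gata, Tal and Hand, 12 proneural bHLH and 17 Wnt ligand genes. Most Hox genes of a cluster shared a peak, so these 36 were not separate observations. Of 87 other homeobox genes 85 were retained and 1, Hesx1, a pituitary and forebrain factor, was lost (2.90 and 2.41 in control). All 17 forebrain identity genes were retained, and 14 of 15 brainstem identity genes. All 6 genes of the Polycomb complexes themselves with a peak in both controls were retained, while of 9 with a peak in control culture 59, 3 had none in K27M culture 59. No list had a gained member.

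Other families lost part of their promoters, none of those in this paragraph above the 31.6% lost over all genes. Of 29 forkhead genes 25 (86.2%) were retained and 3 were lost: Foxs1 (4.62 and 3.27), Foxp2, a factor of speech and motor circuits (2.85 and 2.97), and Foxp4 (2.41 and 2.91). Axon guidance genes had 15 retained and 6 lost (26.1%, near the share over all genes) of 23, and the lost ones were the semaphorin receptors Plxna1, Plxna2 and Plxna4, the semaphorins Sema4b and Sema5b and the ephrin receptor Epha3. Plxna2, for example, had 3.48 and 2.63 in control, over 3000 and 649 bp of the promoter. Ion channel genes had 39 retained (81.2%) and 6 lost (12.5%) of 48. Among the lost were Scn8a, a sodium channel of the axon initial segment (2.28 and 2.46), and Kcnh7 (4.12 and 3.08). Neurotransmitter receptor genes had 32 retained (69.6%) and 9 lost (19.6%) of 46. The lost included the muscarinic receptors Chrm2 (3.48 and 2.93) and Chrm3 (2.47 and 2.90), the GABA receptor subunits Gabra4 and Gabrb1, and the dopamine receptor Drd1 (2.88 and 2.55). Signalling lists lost Inhba (3.49 and 3.59), Fstl3, Notch4 (3.11 and 3.39) and Hes3. In these lists 17 of 19 BMP and TGF-beta genes (89.5%) and 6 of 8 Notch pathway genes were retained. Among FGF ligands 10 of 11 (90.9%) were retained and none was lost in both cultures.

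Among lists with at least 5 such genes, the share lost was highest in the chemosensory receptors. Of 128 olfactory and vomeronasal receptor genes with a peak in both controls, 123 (96.1%) were lost and 3 were retained, and these promoters were CpG-poor, with a median of 3.67 CpG per kb against 24.7 over all genes. Keratin and claudin genes had 9 retained and 12 lost (48.0%) of 25, among the lost Krt12 of the cornea (3.65 and 3.15) and Cldn4 (4.26 and 2.48). Chemokine and interleukin genes had 5 retained and 5 lost (41.7%) of 12, with Il6 at 2.33 and 3.24. Collagens, laminins and integrins stood near all genes, with 20 retained (60.6%) and 12 lost (36.4%) of 33, and 10 of the 12 were collagens, Col1a1 (2.66 and 2.74) and Col8a1 (3.37 and 3.10) among them. Of myelin genes, Mobp (3.17 and 3.83) and Myrf, the transcription factor that starts myelination (2.36 and 2.49), were lost and 1 of 3 was retained, too few genes for a share. Of the short lists, Sox genes had 4 retained and 2 lost of 6, Zic and Gli genes 3 and 1 of 4, hedgehog genes 3 and 0 of 3, neuron genes 7 and 1 of 8, astrocyte genes 1 and 1 of 3, endothelial genes 2 and 0 of 3, ribosomal protein genes 3 and 0 of 5, and the single cyclin-dependent kinase inhibitor gene with a peak in both controls, Cdkn1c, was retained. Marker genes of other cells among the lost were P2ry12 of microglia (2.48 and 3.12), Aldh1l1 of astrocytes (2.52 and 2.83) and Syt1 of neurons (2.58 and 2.77).

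**Figure D5:**
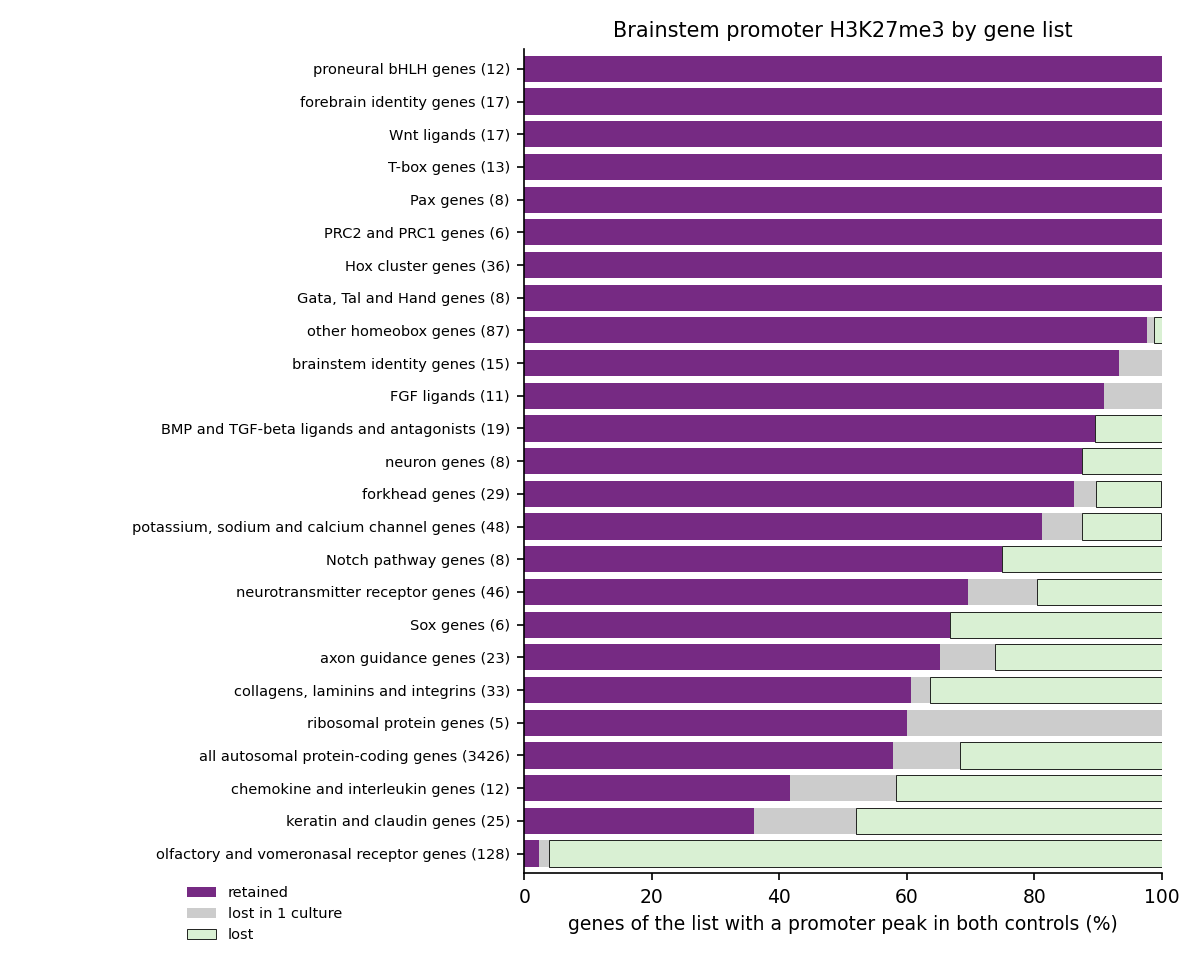
Percentage of genes retained, lost in 1 culture and lost, for each gene list with at least 5 genes that had a promoter peak in both controls (number in parentheses). Homeobox and other developmental lists lie at the top with all or nearly all promoters retained, and the olfactory and vomeronasal receptor genes at the bottom with 96.1% lost.

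The counts depended on the culture. In culture 61 alone, where 61.7% of all genes with a control peak kept it, 36 of 36 Hox, 88 of 89 other homeobox and 17 of 17 Wnt genes were kept, and 178 of 183 olfactory and vomeronasal receptor genes and 15 of 28 keratin and claudin genes were lost. In culture 59 alone, where 34.9% of all genes kept their peak and 65.1% lost it, 37 of 37 Hox, 85 of 92 other homeobox and 17 of 18 Wnt genes kept it, but only 12 of 16 proneural bHLH and 10 of 15 FGF genes did. Axon guidance genes lost 20 of 37 there (54.1%), collagens, laminins and integrins 27 of 48 (56.2%), keratins and claudins 33 of 42 (78.6%) and the chemosensory receptors 408 of 412. When each pair was cut to equal numbers of peaks by q-value, 2199 genes had a peak in both controls, of which 1812 (82.4%) were retained and 222 (10.1%) lost. The Hox (35 of 35) and other homeobox genes (83 of 84) were still retained, whereas only 11 olfactory and vomeronasal receptor genes still had a peak in both controls, 7 of them lost. Only 1 of 21 collagen, laminin and integrin genes was then lost.

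Some loci turned on 1 control library. They were picked after their values were seen. At Zic4, a zinc-finger factor of the cerebellum and dorsal hindbrain counted among the lost genes, control culture 59 had 8.80 over the whole 3000 bp promoter and control culture 61 2.57 over 528 bp. At the neighbouring Zic1 control culture 59 also had 8.80 and control culture 61 had no peak. The region over both genes, chr9:91341745-91456408, was itself retained. K27M peaks covered 32.1% and 39.6% of it (cultures 59 and 61), with highest fold enrichments of 5.64 and 7.58. Control peaks covered all of it in culture 59 and 14.6% in culture 61, with highest values of 8.80 and 4.17. Pax3, a factor of the dorsal neural tube, had 8.93 in control culture 59 and no peak in the other 3 libraries. Sox1, a neural progenitor factor, had 7.69 over 3000 bp and 2.61 over 200 bp. H3K4me3 at Zic1 was 4.10 in control culture 59 and 14.7, 29.0 and 20.1 in control culture 61 and K27M cultures 59 and 61. The promoter losses at Zic4 and Sox1 therefore rested mainly on control culture 59.

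A few loci, among them Hox genes, went the other way in part of the libraries, again picked after their values were seen. Hoxa2, a factor of the hindbrain and branchial arches, had no H3K27me3 promoter peak in 3 libraries and 27.3 over the whole promoter in K27M culture 61, and its H3K4me3 fold enrichment was 21.8 and 17.3 in control and 29.0 and 16.7 in K27M. Hoxa4 had 3.73 and no peak in control and 2.39 and 27.3 in K27M. Over the whole HoxA cluster the highest fold enrichment was 9.15 and 10.3 in control and 24.1 and 27.3 in K27M. En2, a midbrain and cerebellum factor, had no peak and 3.52 in control and 24.7 and 22.3 in K27M.

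H3K4me3 was then read at the same promoters, in libraries that had no part in the classes. At the 1083 lost genes an H3K4me3 peak was present at 59.8% and 58.4% in control and 61.4% and 56.4% in K27M (cultures 59 and 61). The differences of 1.57 and -2.03 percentage points had opposite signs, with a mean of -0.23 ± 2.55 (SD, n = 2 pairs; exact sign-flip permutation test, two-sided, p = 1.0). At all genes the shares were 63.9% and 63.3% in control and 64.7% and 62.2% in K27M. The study's reporting notes list more H3K4me3 reads for K27M than for control in culture 59 and fewer in culture 61. The shares followed that order at the lost genes and at all genes. The part of depth in these differences was not tested. Only 1 of 425 lost genes without H3K4me3 in the controls had it in both K27M libraries, 0.235% against 0.420% over all genes without it in the controls.

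The lost genes fell into a group with H3K4me3 in both controls (623 genes) and one with it in neither (425 genes). The first had a median of 27.3 promoter CpG per kb and held no olfactory or vomeronasal receptor gene, and the second had 8.33 and held all 123. Among genes with H3K27me3 in both controls, 63.4% of the 2469 with H3K4me3 and 38.1% of the 796 without were retained. Within quintiles of CpG density this order held only in the CpG-poor ones. In the lowest quintile 51.9% of genes with and 12.5% of genes without H3K4me3 were retained, and in the next to highest 66.3% with and 81.5% without. In the highest, 76.8% with and all 33 without were retained.

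At retained promoters H3K4me3 changed at a small set of genes. It was present at 83.6% and 80.0% of the 1984 genes in control and at 83.7% and 74.4% in K27M. The fall was in culture 61 only, where the K27M H3K4me3 library had fewer reads than the control one. Of 1566 retained genes with H3K4me3 in both controls, 26 (1.66%) had it in neither K27M library. This compares with 31 of 13052 (0.238%) over all genes and 1 of 623 (0.161%) among lost genes. Of these 26 genes, 20 were in the quintile of retained genes with the highest K27M H3K27me3 fold enrichment, where 76.6% and 67.8% had H3K4me3 in control and 67.0% and 54.9% in K27M. The other 4 quintiles had 0, 1, 0 and 5 such genes from the lowest upward. Dlx5 and Dlx6, factors of forebrain inhibitory neurons, had H3K27me3 at 9.54 and 9.74 in control and 29.7 and 35.9 in K27M, and H3K4me3 on Dlx6 was 7.33 and 3.08 in control with no peak in K27M. At Emx2, a cortical patterning factor, H3K27me3 went from 7.74 and 8.97 to 26.1 and 33.8, and H3K4me3 from 12.1 and 3.87 to no peak in either culture. Six3, Fezf2, Nr2e1, Tbx15, Foxc2 and Tal1 had the same pattern, as did Lmx1b (H3K4me3 of 11.1 and 3.51 in control) and Hmx3 (7.12 and 3.64). In control culture 59, H3K4me3 at these 26 genes lay below the median of 18.2 over all genes with a peak.

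The classes were last read in telencephalic OPCs, whose H3K27me3 libraries had no part in defining them. They are not shown to be independent of the brainstem libraries: both regions were dissected from the same litters, so telencephalic and brainstem cultures 59 and 61 may share animals. The lost brainstem genes had a promoter peak in 24.0%, 86.6% and 92.5% of cases in the telencephalic controls (cultures 59, 60 and 61) and in 0.831%, 14.8% and 9.05% in telencephalic K27M OPCs. The retained genes had one in 79.9%, 99.5% and 99.1% in control and 65.6%, 95.9% and 90.5% in K27M. In each of the 3 pairs the drop was larger at genes lost than at genes retained in the brainstem. Control culture 59 of the telencephalon had a short list, 12526 autosomal peaks, against 33571 and 51230 in the other controls.

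The fall in covered length was of like size in both regions. The log2 ratio of K27M to control averaged -1.67 ± 0.83 (SD, n = 2 pairs) in the brainstem and -1.72 ± 0.70 (SD, n = 3 pairs) in the telencephalon, a brainstem minus telencephalon difference of 0.05. An exact permutation test over the 10 arrangements of pairs, two-sided, gave p = 1.0, and could not have gone below 0.1. The test takes the pairs of both regions as separate, although animals may be shared. The single pairs ran from -2.26 to -1.08 in the brainstem and from -2.45 to -1.07 in the telencephalon, so that a difference within this spread could not have been detected.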

How the data were processed

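ChIP-seq for H3K27me3 and H3K4me3 was analysed from peak lists of brainstem OPCs, 2 cultures per genotype, with the telencephalic libraries for comparison. Alignment to mm10 used BWA 0.7.17-r1188, and the authors called peaks library by library with MACS2 2.2.7.1, broad ones for H3K27me3 and narrow ones for H3K4me3, each ChIP set against the input of the same culture, with duplicates kept and blacklisted regions removed. The deposited values per peak are fold enrichment over input (a linear ratio, averaged over a broad peak and taken at the summit of a narrow one) and −log10 p-values and q-values. The Drosophila spike-in was not used in the calls, and the peak files hold no read counts. Read totals are listed in the study's reporting notes, and only their order is used here.

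Autosomal peaks were intersected in Python 3.11.15 (numpy 2.4.6, pandas 2.3.3) after the interval code was tested on simulated data. Promoters spanned 2000 bp upstream to 1000 bp downstream of GENCODE M21 transcript starts, and an overlap of 1 bp counted. CpG was read from GRCm38, in which 0 peaks passed a chromosome end. A gene's fold enrichment was that of its strongest overlapping peak, and no peak was given as 0. Overlapping or neighbouring genes can share a peak.

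Libraries of one culture number were paired, since the labels share the number and the methods describe matched cultures. The deviations of promoter peaks within culture numbers correlated by r = 0.043 over 6380 genes. Cultures were the replicates. Named genes were the 8 with the highest lower fold enrichment of their class (with ties, and for lost genes those with at least 1000 bp covered in both controls), members of 32 gene lists that were lost or gained in both cultures, and examples of retained members. The 5 longest regions of each class were named. Members, lists and rules were chosen with earlier results of these data known. No set test was run. Alternatives used q-values, fold enrichment, equal peak numbers, single cultures, all chromosomes and other promoters. Chromosome X and unplaced sequences were left out of the comparisons.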

Additional observations from a re-analysis of the deposited data

Results flagged for a closer look

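Chromosome X was outside the comparison, and there the brainstem K27M libraries held more peaks than the brainstem controls. K27M culture 59 had 1037 peaks on this chromosome (13.4% of its peaks, 1.27 Mb) and K27M culture 61 had 4966 (39.0%, 6.76 Mb), above the 448 and 265 peaks (0.826% and 1.03%) of control cultures 59 and 61. In peak number, telencephalic OPCs shared this direction in culture 59 only. Culture 59 went from 148 peaks in control to 798 in K27M, but culture 60 from 16040 to 8114 and culture 61 from 13564 to 1855. As a share of each list, the telencephalic values were higher in K27M in each pair, as in the brainstem. They were 1.16%, 32.3% and 20.9% in control and 16.8%, 51.5% and 22.4% in K27M (cultures 59, 60 and 61). The make-up of the pools by sex is not given in the sources used here, and its part in these counts was not tested.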

How the results depend on the processing

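Covered length, peak number and genes with a promoter peak were lower in K27M under each alternative in which they were compared. Peak number was not compared with equal numbers of peaks, where the setting fixes it. The mean log2 ratio of covered length was -1.21 at −log10 q of at least 3, -1.03 at a fold enrichment of at least 3, -0.88 with equal numbers of peaks and -1.46 on all chromosomes. Without the pairing (no replicate block) it stayed at -1.67, with an exact permutation p of 0.33, the smallest for 2 against 2 libraries, and no call changed. Leaving out 1 culture gave -2.26 to -1.08 for covered length, -3.01 to -1.71 for peak number, -3940 to -1316 for genes with a promoter peak, 18.9 to 42.8% for control length kept, 1410 to 3975 lost, 2132 to 2272 retained and 35 to 94 gained genes; the 3975 lost genes stood without culture 61, on control culture 59 alone. Retained genes numbered between 1424 and 2794 over the alternatives. Lost genes numbered 419 at −log10 q of at least 3, 315 at a fold enrichment of at least 3, 222 with equal numbers of peaks and 1812 over all annotated genes. Gained genes numbered 4, 16 and 29 under those first 3 settings, 32 on all chromosomes, 3 with promoters of 1000 bp each side, 2 with an overlap of at least 500 bp and 6 over all annotated genes. The cause of these shifts was not tested beyond the settings themselves. The mean H3K4me3 difference at lost genes turned positive, at 0.119, 0.159, 0.225, 0.111 and 0.579 percentage points with q-value, fold enrichment, equal numbers, promoters of 1000 bp and all annotated genes, and ran from -1.42 to 1.46 when 1 culture was left out. The brainstem minus telencephalon difference ran from -0.54 (without brainstem culture 61) to 0.64 as pairs were left out, and was -0.32 without telencephalic culture 61. List counts for single cultures and for equal numbers were added after the data had been seen. Read totals differed between libraries and peaks were not called at equal depth, so an absent peak does not show an absent mark.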
